A study of Homo sapiens with 11 samples.

Results

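The 45 genes described here act in mitosis or in the G2 phase that precedes it, and were chosen by name. They comprise cyclins, CDK1 and mitotic kinases, the enzymes that switch CDK1 on and off, spindle checkpoint, kinetochore, kinesin and spindle proteins, and the proliferation genes FOXM1, MKI67 and TOP2A. All 45 were found by Ensembl ID among the 57736 gene rows of the count table, and all 45 were among the 13980 genes with enough counts to be tested. The cells were HEC50B, an established endometrial cancer line, and 11 RNA-seq libraries were analysed. R183W cells are the parental line, with R183W mutant PPP2R1A, which encodes the scaffold of the PP2A phosphatase. For 4 days they were given 50 µM WM1119, which inhibits the acetyltransferase KAT6A (2 libraries), or vehicle (3 libraries). WT cells are the same line with PPP2R1A returned to wild type by CRISPR, given WM1119 in the same way (3 libraries) or vehicle (3 libraries). The sources used here do not give the number of WT clones, so the PPP2R1A correction and differences between clones cannot be told apart. Nor is it stated whether libraries of a group came from separate cultures, so p-values measure only the spread between these libraries, which may be technical.

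Entry into mitosis depends on CDK1 bound to cyclin B. The kinases WEE1 and PKMYT1 hold CDK1 inactive by phosphorylation, and CDC25 phosphatases remove those phosphates. Once chromosomes are condensed, the kinetochore links them to spindle microtubules, the spindle checkpoint delays anaphase until all are attached, and CDC20 then directs the anaphase-promoting complex to destroy cyclin B. Many of these genes are repressed in G1 and switched on late in the cycle through a CHR element in their promoters, bound by the MuvB core, often beside CCAAT boxes bound by NF-Y; FOXM1 and MYBL2 join MuvB when the genes are on. PP2A opposes CDK1 at mitotic entry and exit.

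Promoters of all 8 called members that have a single start in the RefSeq table are shown, so that the presence or absence of these elements can be read from the letters. The other called members are not shown, as PKMYT1 and FOXM1 have no entry in the RefSeq table and AURKB and CDC25B have several starts. The sequences are the 200 bases before the annotated start, 5′ to 3′ on the strand of the gene, from RefSeq on GRCh38.p14. Capitals mark the CHR spelling TTTGAA and its variant spelling TTTAAA, the NF-Y spelling CCAAT, and the E2F spelling TTTGGCGC, each on either strand.
HMMR: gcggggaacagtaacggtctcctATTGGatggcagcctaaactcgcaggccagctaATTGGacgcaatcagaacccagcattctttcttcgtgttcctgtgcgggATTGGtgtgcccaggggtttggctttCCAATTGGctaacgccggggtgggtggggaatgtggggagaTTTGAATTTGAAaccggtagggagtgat
PRC1: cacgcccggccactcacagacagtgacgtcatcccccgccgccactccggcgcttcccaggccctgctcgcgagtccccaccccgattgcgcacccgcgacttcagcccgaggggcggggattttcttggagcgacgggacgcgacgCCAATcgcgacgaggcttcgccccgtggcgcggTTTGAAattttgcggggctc
MKI67: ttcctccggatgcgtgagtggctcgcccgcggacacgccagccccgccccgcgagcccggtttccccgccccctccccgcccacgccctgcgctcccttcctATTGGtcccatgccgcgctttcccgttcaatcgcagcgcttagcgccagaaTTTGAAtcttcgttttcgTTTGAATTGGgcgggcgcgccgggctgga
CDC20: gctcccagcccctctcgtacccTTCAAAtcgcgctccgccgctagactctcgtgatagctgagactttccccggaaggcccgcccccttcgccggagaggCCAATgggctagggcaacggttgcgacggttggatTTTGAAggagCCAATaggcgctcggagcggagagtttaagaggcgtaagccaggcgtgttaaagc
TOP2A: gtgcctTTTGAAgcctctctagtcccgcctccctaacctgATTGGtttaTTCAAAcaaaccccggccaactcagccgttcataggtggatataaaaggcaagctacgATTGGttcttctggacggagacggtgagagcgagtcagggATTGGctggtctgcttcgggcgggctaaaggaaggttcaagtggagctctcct
ASPM: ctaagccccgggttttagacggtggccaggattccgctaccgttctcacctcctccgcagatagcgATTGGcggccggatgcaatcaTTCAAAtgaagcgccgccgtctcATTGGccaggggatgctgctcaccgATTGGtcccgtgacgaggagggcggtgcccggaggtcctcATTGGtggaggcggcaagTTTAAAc
CDC25A: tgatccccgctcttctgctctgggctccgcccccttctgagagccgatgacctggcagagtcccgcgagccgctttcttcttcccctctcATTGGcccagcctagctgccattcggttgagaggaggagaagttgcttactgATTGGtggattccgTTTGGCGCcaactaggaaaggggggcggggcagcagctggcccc
NDC80: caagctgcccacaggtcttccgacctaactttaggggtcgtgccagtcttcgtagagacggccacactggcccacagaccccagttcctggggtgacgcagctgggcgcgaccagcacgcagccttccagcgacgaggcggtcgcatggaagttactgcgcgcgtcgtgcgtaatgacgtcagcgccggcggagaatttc
The windows lie at chr5:163460432-163460631 (plus strand), chr15:90994536-90994735 (minus strand), chr10:128126424-128126623 (minus strand), chr1:43358781-43358980 (plus strand), chr17:40417897-40418096 (minus strand), chr1:197146670-197146869 (minus strand), chr3:48188418-48188617 (minus strand) and chr18:2571357-2571556 (plus strand). HMMR holds TTTGAA in tandem, CDC25A holds no CHR spelling and the only E2F spelling of the 8, and NDC80 holds none of the searched spellings in these 200 bases. In NDC80 a CHR spelling, TTCAAA, begins at position -3 from the start and runs past the end of the bases shown. A wider window, 250 bases before to 50 after the start, was searched in the 36 members that the RefSeq table contains. A CHR spelling was present in 31 of these 36 (86.1%), against 27.9% of all 27305 genes in the table. CCAAT was present in 30 (83.3%), against 39.7%, and CCAAT together with a CHR spelling in 24 (66.7%), against 11.2%. The E2F spelling was present in 2 members (5.56%), against 0.795% of all genes. AURKB, BUB1, CCNA2, CDC25A and NEK2 held no CHR spelling in this window. These matches are letters in a window and do not show that a factor binds there. The CHR members and the 5 without one had median inhibitor effects in R183W cells of -0.22 and -0.18 (log2), and in WT cells of 0.00 and -0.04.

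CPM values are counts scaled for library size with TMM factors and depend on gene length, so they are compared between groups and not between genes. Library totals ran from 2609922 counts in WT WM1119 library 3 to 6065149 counts in R183W vehicle library 1, and no member had fewer than 30 counts in any library. WT WM1119 library 3 stood apart: its log CPM values correlated across genes with those of the other libraries of its group at 0.917 and 0.937, against at least 0.957 for every other replicate pair. It lay below both group mates for 24 of the 45 members and above both for 12, so results are also given without it where that changes them. Of the defining markers of the cell type, the epithelial keratin KRT18 and the endometrial lineage factor PAX8 were present in every library. The 6 epithelial markers summed to between 950.3 and 1852 CPM, although KRT19 and CDH1 stayed under 1 CPM. Of the 4 endometrial markers PAX8 carried nearly all of the sum, with the progesterone receptor PGR at 0 and the estrogen receptor ESR1 at or near 0. The 5 stromal markers summed to between 565.1 and 935.6 CPM, almost all of it COL1A1, with DCN at 0 in every library and COL1A2 at 0 in all but WT vehicle library 2 (0.762 CPM). Immune and endothelial markers reached at most 11.2 and 0.856 CPM in sum.

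Most members had lower levels with WM1119 in R183W cells and were divided in WT cells. In bulk RNA, fewer cells in G2 or mitosis and less of these RNAs per cell cannot be told apart. Differences were tested with edgeR's quasi-likelihood test on the whole table, and genes with a Benjamini-Hochberg adjusted p under 0.05 were called. In R183W cells, PKMYT1, PRC1 and HMMR fell with WM1119 and no member rose. These 3 of 45 members stand beside 4.64% of all genes tested that were called, 2.65% lower and 1.99% higher. The fitted change was negative for 40 members and positive for 5, with a median of -0.24 on the log2 scale, against a median of 0.00 over all genes tested. Before adjustment, 16 members were lower and 2 higher at p under 0.05 (edgeR), against 2739 of all 13980 genes tested in either direction. In 28 members both R183W WM1119 libraries lay below all 3 R183W vehicle libraries, against 23.6% of all genes tested, and in 4 both lay above, against 23.2%. No member was called without R183W vehicle library 2, or without either R183W WM1119 library, the last of which leaves a lone library that is assumed to vary like the other groups. Only 1 was called without R183W vehicle library 3, whereas leaving out WT WM1119 library 1 gave 5 and leaving out WT WM1119 library 3 gave 9. These 9 were the 3 above with CDC25A, MKI67, CENPE, BIRC5 and ECT2 lower and CDC25B higher. The median stayed between -0.33 and -0.24 when any library was left out.

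Markers of stromal cells moved with WM1119 too: of 3 tested, COL1A1 and PDGFRB fell with WM1119 in R183W cells (edgeR adjusted p = 0.0241 and 0.00749), and LUM, with at most 4.14 CPM in any library, was not called. The COL1A1 call was lost when R183W vehicle library 2 or 3 was omitted, both it and the PDGFRB call were lost when either R183W WM1119 library was omitted (edgeR adjusted p up to 0.191 and 0.124), and PDGFRB was also lost with limma-voom (limma adjusted p = 0.148). The stromal sum was 565 to 568 CPM in R183W WM1119 libraries, against 729 to 936 CPM in R183W vehicle libraries, and 843 to 896 CPM in WT WM1119 libraries, against 613 to 695 CPM in WT vehicle libraries. COL1A1 rose with WM1119 in WT cells, by 0.46 (SE 0.11) (edgeR adjusted p = 0.0354), and the difference between its effects was -1.02 (SE 0.17) (edgeR adjusted p = 0.0252), calls lost without most single libraries (adjusted p up to 0.136 and 0.2). PDGFRB had 0.240 and 0.302 CPM in R183W WM1119 libraries, against 3.46, 7.70 and 6.29 CPM in R183W vehicle libraries. The R183W WM1119 levels equal a single count in each library, so the size of this fall is uncertain. In WT cells PDGFRB had 30.5, 22.9 and 14.0 CPM with WM1119, against 29.2, 52.2 and 34.1 CPM with vehicle. PDGFRB was lower in R183W cells under both treatments, and COL1A1 was lower there under WM1119 and higher under vehicle. Of 4 tested epithelial markers EPCAM rose with WM1119 in R183W cells, by 1.07 (SE 0.16) (edgeR adjusted p = 0.00162). The 4 changes there were 2 positive and 2 negative, from -1.05 to 1.07, with a median of -0.04. The epithelial sum was 1628 and 1630 CPM in R183W WM1119 libraries, against 1852, 1653 and 1667 CPM in R183W vehicle libraries. None of the 4 was called in WT cells. At an unadjusted p under 0.05 (edgeR) 3 were higher there, against 2980 of all 13980 genes tested in either direction. The part of these markers in the members' values was not tested.

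In WT cells PKMYT1 alone was called with WM1119, and it rose, beside 4.86% of all genes tested that were called, 2.33% higher and 2.53% lower. The fitted change was positive for 22 members and negative for 23, with a median of 0.00. At an unadjusted p under 0.05 there were 6 higher and 7 lower members (edgeR), against 2980 of all 13980 genes tested in either direction. All 3 WT WM1119 libraries lay above all 3 WT vehicle libraries in 6 members, against 10.7% of all genes tested, and below in 5, against 11.6%. No member was called without WT vehicle library 2 or 3, and 2 were called without WT vehicle library 1 or without WT WM1119 library 3. Leaving out WT WM1119 library 1 gave 7, of which PKMYT1 and CDC25B were higher and BUB1, CENPE, NUF2, ASPM and ANLN lower. The direction of the WT change turned for 19 members under at least 1 of the 17 other settings.

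**Figure D1:**
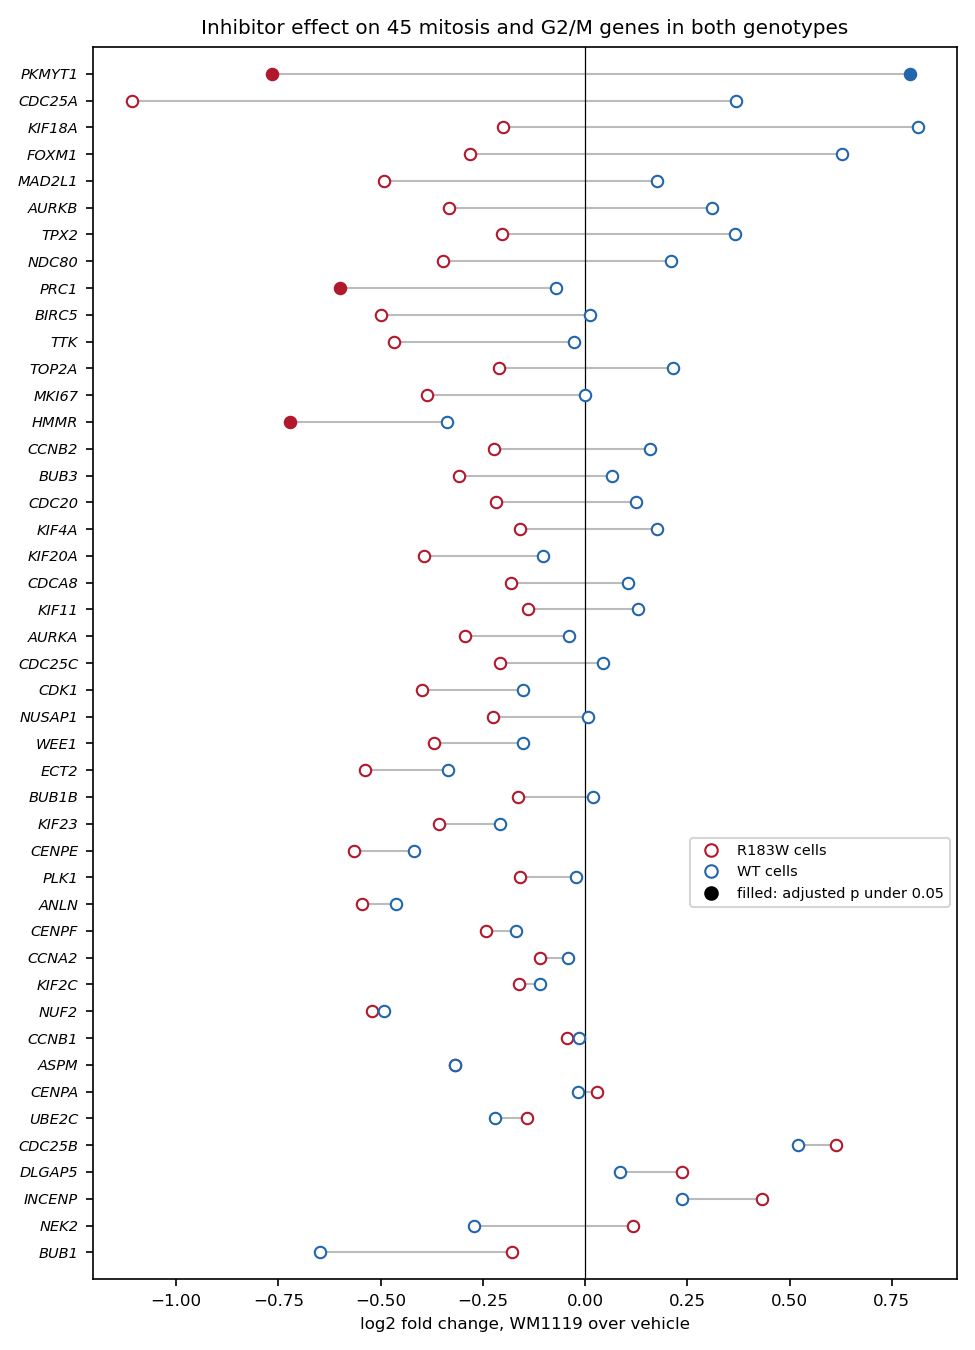
Log2 fold change with WM1119 over vehicle for each of the 45 genes, in R183W cells (red) and WT cells (blue), ordered by the difference between the genotypes, with filled circles for an edgeR adjusted p under 0.05. The red circle lies left of the blue one in 38 of 45 genes, and PKMYT1 has the widest gap, at -0.77 in R183W cells and 0.79 in WT cells.

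The inhibitor effects in R183W and WT cells come from separate libraries and can be set side by side. Both were negative in 21 members, and both positive in 3. In 19 members the effect was negative in R183W cells and positive in WT cells, and in 2 the reverse. The test of the difference, R183W effect minus WT effect, called 1 member, PKMYT1, beside 0.286% of all genes tested that were called, 0.193% lower and 0.093% higher. The difference was negative for 38 members and positive for 7, with a median of -0.25, against -0.01 over all genes tested. At an unadjusted p under 0.05, 10 members had a negative difference and none a positive one (edgeR), against 1300 of all 13980 genes tested in either direction. Libraries were fully separated in opposite directions, lower in R183W cells and higher in WT cells, for AURKB, KIF18A, NDC80 and PKMYT1, 4 of 45 members, against 0.944% of all genes tested. They were fully separated and lower in both genotypes for CENPE, CENPF, ECT2 and HMMR, against 5.84% of all genes tested, and higher in both for CDC25B, against 5.18%. The reverse pattern, higher in R183W cells and lower in WT cells, was seen in 0 members, against 0.844%.

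Under vehicle, 8 members differed between the genotypes, the most of any comparison. R183W cells had higher PKMYT1, AURKB, TOP2A, CDC20, NDC80 and CDC25A and lower CDC25B and ASPM than WT cells. These 8 of 45 members stand beside 13% of all genes tested that were called, 6.82% higher and 6.17% lower. The median log2 difference was 0.06, with 24 members positive and 21 negative. All 3 R183W libraries lay above all 3 WT libraries in 14 members, against 19.3% of all genes tested, and below in 10, against 18.5%. Between 3 and 5 members were called when any 1 of the 6 vehicle libraries, either R183W WM1119 library or WT WM1119 library 2 was left out. Without WT WM1119 library 3 there were 14, with PRC1 and TPX2 also higher and UBE2C, CENPE, KIF2C and KIF20A also lower. PKMYT1, AURKB and TOP2A were called under every one of the 17 alternative settings.

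Under WM1119, FOXM1 and MKI67 were lower in R183W cells than in WT cells and no member was higher, beside 8.56% of all genes tested that were called, 3.92% lower and 4.64% higher. The median log2 difference was -0.23, with 31 members negative and 14 positive. In 17 members both R183W WM1119 libraries lay below all 3 WT WM1119 libraries, against 16.3% of all genes tested, and in 3 they lay above, against 18.5%. The count rested on single libraries. It was 16 without WT WM1119 library 3, with TOP2A higher and CCNA2, CCNB2, CDK1, TTK, MAD2L1, UBE2C, CENPE, CENPF, BIRC5, KIF2C, KIF20A, NUSAP1 and ASPM joining the lower members, and 0 without R183W WM1119 library 2. It was 1 when any R183W vehicle library, WT vehicle library 1 or 2, R183W WM1119 library 1 or WT WM1119 library 2 was left out.

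**Figure D2:**
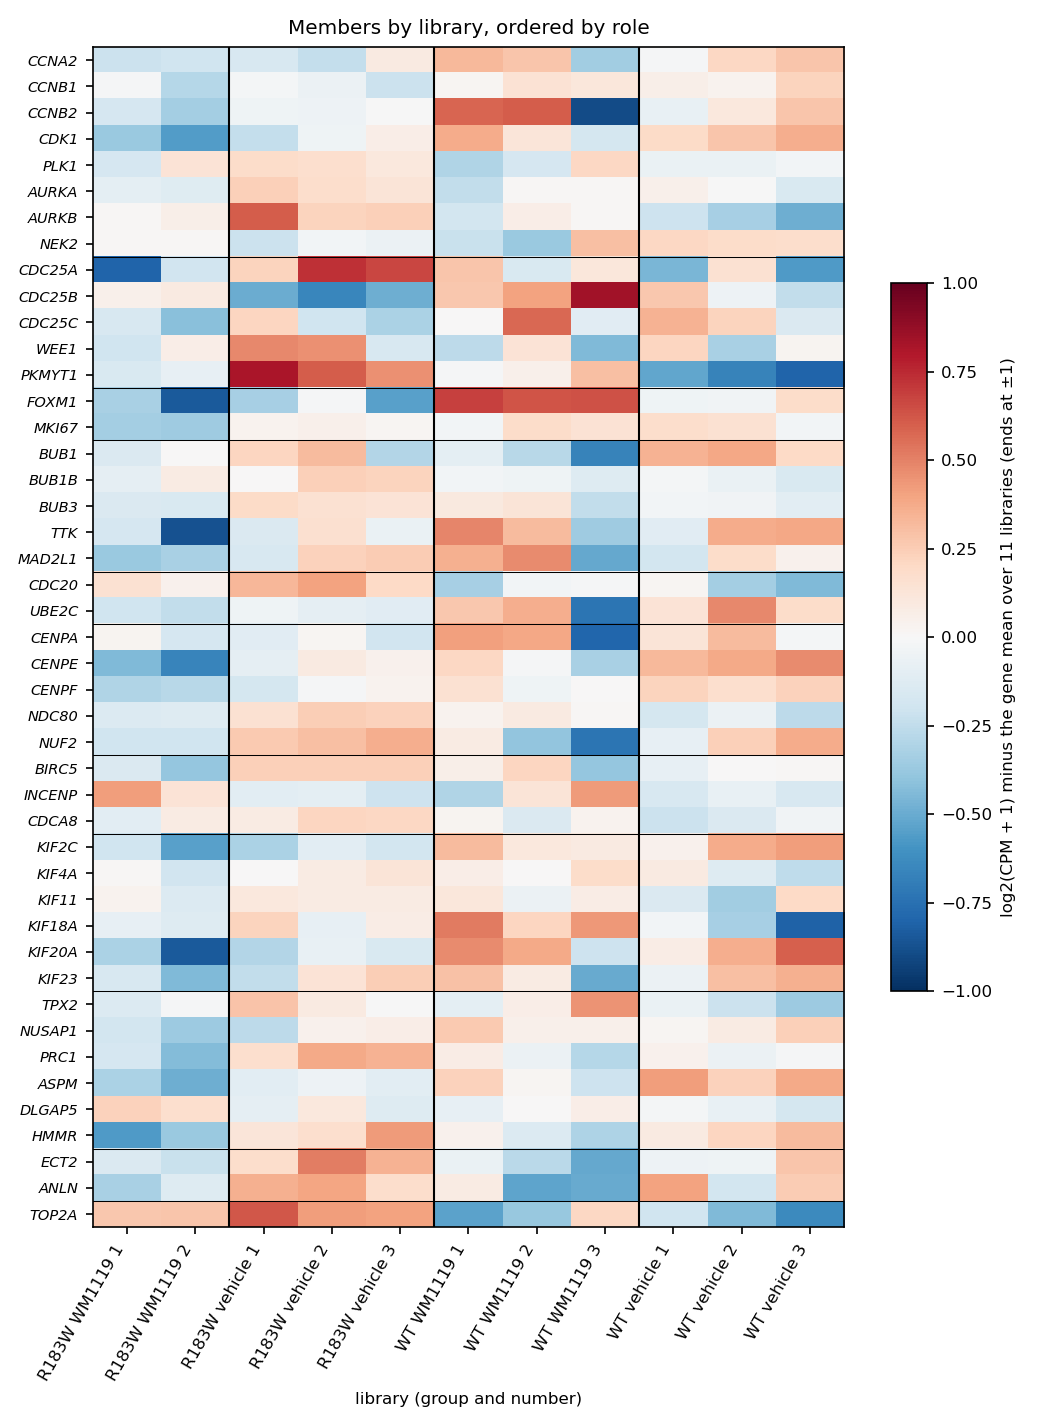
Level of each of the 45 genes in each of the 11 libraries, as log2(CPM + 1) less the mean of the gene over all libraries, with red above and blue below that mean and the colours ending at ±1. The R183W WM1119 columns are blue in most rows, and WT WM1119 library 3 differs from the other libraries of its group in rows such as CCNB2 (22.3 CPM, against 63.7 and 64.7 CPM).

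Of the 5 enzymes that set the activity of CDK1, PKMYT1 was called in 4 comparisons, CDC25A and CDC25B in 1 each, and WEE1 and CDC25C in none. The comparisons share libraries, so the PKMYT1 calls are not separate results. PKMYT1, the membrane-bound kinase that phosphorylates CDK1, had 40.6 and 42.6 CPM in R183W WM1119 libraries, against 80.0, 69.3 and 62.5 CPM in R183W vehicle libraries. In WT cells it had 44.8, 46.8 and 55.7 CPM with WM1119, against 31.2, 28.0 and 25.4 CPM with vehicle. The groups did not overlap in either genotype: WM1119 libraries were the low ones in R183W cells and the high ones in WT cells, and vehicle libraries of the genotypes lay furthest apart. Group means were 41.6 ± 1.44 CPM (SD, n = 2) and 70.6 ± 8.85 CPM (n = 3) in R183W cells, and 49.1 ± 5.83 and 28.2 ± 2.92 CPM (n = 3 each) in WT cells. The log2 change with WM1119 was -0.77 (SE 0.18) in R183W cells (edgeR adjusted p = 0.0243) and 0.79 (SE 0.16) in WT cells (edgeR adjusted p = 0.0129). The difference between these effects was -1.56 (SE 0.24) (edgeR adjusted p = 0.0189). Under vehicle R183W cells stood 1.33 (SE 0.16) above WT cells (edgeR adjusted p = 9.76e-05), and under WM1119 the log2 difference was -0.23 (SE 0.18) (edgeR adjusted p = 0.465). The fall in R183W cells missed the threshold without R183W vehicle library 1 or 2 or without either R183W WM1119 library, at an edgeR adjusted p of 0.0667, 0.0798, 0.192 and 0.177. The rise in WT cells missed it without WT vehicle library 2 or 3 (edgeR adjusted p = 0.0549 and 0.0649), and in a fit of the compared groups alone (0.0825). The difference of effects missed it without R183W vehicle library 2 or 3, WT vehicle library 2 or 3, or either R183W WM1119 library (edgeR adjusted p = 0.0503 to 0.136). With a replicate block, which fits the library number as a factor, the fall and the difference missed it too (edgeR adjusted p = 0.0774 and 0.114). None of these settings turned a direction. PKMYT1 overlaps PAQR4 and KREMEN2 on the opposite strand in GENCODE release 29, and the sources used here do not state whether the counting used strand. PAQR4 had 55.2 and 49.5 CPM in R183W WM1119 libraries and 48.0, 55.2 and 53.9 CPM in R183W vehicle libraries, a log2 change of 0.00. It had 24.6, 27.0 and 31.4 CPM in WT WM1119 libraries and 19.6, 17.5 and 23.5 CPM in WT vehicle libraries, a log2 change of 0.44 (edgeR adjusted p = 0.161). PAQR4 was also higher in R183W cells than in WT cells under vehicle, by 1.37 on the log2 scale (edgeR adjusted p = 0.000123). Its inhibitor effects differed by -0.44 (edgeR adjusted p = 0.642), with the sign seen for PKMYT1. KREMEN2, with at most 33.4 CPM in any library, changed by 0.13 in R183W and 0.30 in WT cells, neither called. Reads of PKMYT1 and these genes thus cannot be told apart for the genotype difference, the inhibitor effects or their difference.

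WEE1, the nuclear kinase that shares CDK1 as a substrate with PKMYT1, had 17.8 and 21.4 CPM in R183W WM1119 libraries, against 29.04, 28.5 and 18.2 CPM in R183W vehicle libraries. It had 16.9, 22.6 and 14.9 CPM in WT WM1119 libraries, against 23.9, 16.2 and 20.9 CPM in WT vehicle libraries. All pairs of groups overlapped, and the log2 change was -0.37 (SE 0.27) in R183W cells and -0.15 (SE 0.24) in WT cells. Neither change passed the threshold (edgeR adjusted p = 0.479 and 0.769).

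Of the 3 CDC25 phosphatases, CDC25A acts at both the G1/S and G2/M steps and is itself an E2F target. CDC25A had 7.20 and 11.5 CPM in R183W WM1119 libraries, against 15.7, 22.7 and 21.7 CPM in R183W vehicle libraries. WT libraries had 16.3, 11.8 and 14.5 CPM with WM1119, against 9.37, 14.9 and 8.66 CPM with vehicle. The R183W groups did not overlap, and WT vehicle library 2 lay within the WT WM1119 range. Its log2 change was -1.11 (SE 0.32) in R183W cells, the lowest of all members, yet it did not pass (edgeR adjusted p = 0.0684). In WT cells the change was 0.37 (SE 0.28) (edgeR adjusted p = 0.479), and the difference between the effects was -1.48 (SE 0.42) (edgeR adjusted p = 0.219). Under vehicle it was 0.86 (SE 0.27) higher in R183W cells (edgeR adjusted p = 0.0497). It remained called without WT vehicle library 2, WT WM1119 library 1 or WT WM1119 library 3, and missed the threshold without any of the other 8 libraries (edgeR adjusted p = 0.0539 to 0.185) and with RLE size factors (0.0504). The replicate block also lost this call of CDC25A (edgeR adjusted p = 0.0766). Its counts ran from 30 to 107 per library, which limits precision.

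CDC25B, which is held to start CDK1 activation at the centrosome, had positive fitted changes in both genotypes. CDC25B had 168 and 172 CPM in R183W WM1119 libraries, against 115, 103 and 115 CPM in R183W vehicle libraries. With WM1119, WT libraries had 196, 214 and 291 CPM, against 195, 156 and 136 CPM with vehicle. Inhibited libraries were the high ones in both genotypes with no overlap, by 0.61 (SE 0.18) in R183W cells and 0.52 (SE 0.16) in WT cells on the log2 scale. Neither passed the threshold (edgeR adjusted p = 0.0767 and 0.0871), and the effects differed by 0.09 (edgeR adjusted p = 0.957). Under vehicle it was lower in R183W cells, by -0.55 (SE 0.17) (edgeR adjusted p = 0.0432), a call that held without WT vehicle library 3, WT WM1119 library 1 or WT WM1119 library 3 and was lost without any of the other 8 libraries (edgeR adjusted p = 0.053 to 0.15). CDC25C, which completes CDK1 activation, had 28.3 and 23.6 CPM in R183W WM1119 libraries, against 37.0, 27.6 and 25.3 CPM in R183W vehicle libraries. WT WM1119 libraries had 31.8, 47.8 and 29.3 CPM and WT vehicle libraries had 40.6, 37.2 and 28.6 CPM. These groups overlapped, and no comparison called CDC25C (edgeR adjusted p = 0.276 at the lowest).

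**Figure D3:**
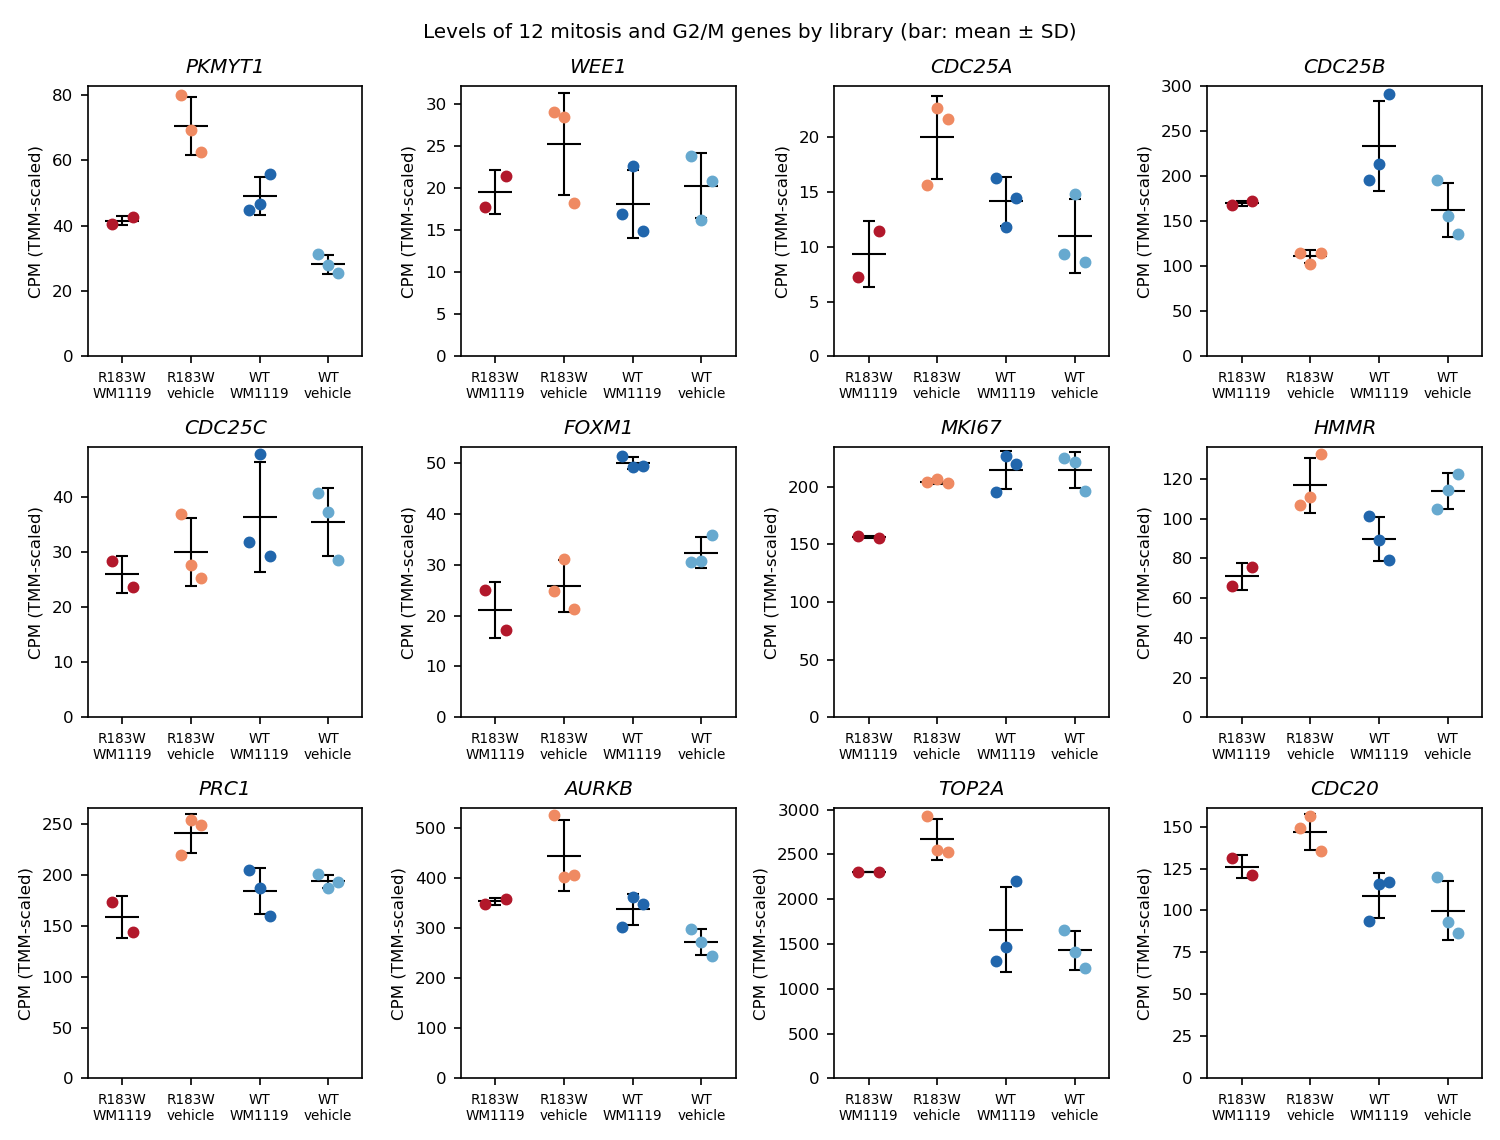
CPM of 12 of the genes in every library, one point per library, with the mean and SD of each group as bars and every axis starting at 0. PKMYT1 separates all WM1119 from all vehicle libraries in opposite directions in the 2 genotypes, CDC25B is higher with WM1119 in both, and FOXM1 stands highest in WT WM1119 libraries at 49.3 to 51.4 CPM.

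None of the mitotic cyclins, nor CDK1 itself, was called in any comparison of the fit with all libraries. CCNB1, the cyclin B1 partner of CDK1, had 73.9 and 60.7 CPM in R183W WM1119 libraries, against 73.3, 71.3 and 63.9 CPM in R183W vehicle libraries. It had 75.3, 82.5 and 80.5 CPM in WT WM1119 libraries, against 77.6, 76.2 and 86.7 CPM in WT vehicle libraries. The groups overlapped within each genotype, and the log2 change was -0.04 (SE 0.15) in R183W cells and -0.02 (SE 0.13) in WT cells. CDK1 had 61.4 and 53.8 CPM in R183W WM1119 libraries, against 67.3, 77.3 and 83.5 CPM in R183W vehicle libraries. It had 103, 86.8 and 70.6 CPM in WT WM1119 libraries, against 91.5, 97.0 and 103 CPM in WT vehicle libraries. The R183W groups did not overlap, with the inhibited libraries the low ones, but the change of -0.40 (SE 0.18) did not pass (edgeR adjusted p = 0.228). Under WM1119 CDK1 stood at -0.60 (SE 0.18) in R183W relative to WT cells (edgeR adjusted p = 0.0519), just over the threshold. CCNA2, the S and G2 cyclin, and CCNB2 had changes of -0.11 and -0.22 in R183W cells and -0.04 and 0.16 in WT cells, none of them called.

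Of the mitotic kinases PLK1, AURKA, AURKB and NEK2, AURKB alone was called. AURKB, the kinase of the chromosomal passenger complex that corrects faulty attachments, had 347 and 358 CPM in R183W WM1119 libraries, against 525, 401 and 406 CPM in R183W vehicle libraries. It had 303, 361 and 348 CPM in WT WM1119 libraries, against 298, 273 and 245 CPM in WT vehicle libraries. R183W vehicle libraries were the highest and WT vehicle libraries the lowest, with the inhibited libraries of both genotypes between them and overlapping each other. The genotype difference under vehicle was 0.71 (SE 0.13) on the log2 scale (edgeR adjusted p = 0.00356), and under WM1119 it was 0.07 (SE 0.15) (edgeR adjusted p = 0.834). The inhibitor effects, -0.33 (SE 0.15) in R183W and 0.31 (SE 0.14) in WT cells, did not pass, nor did their difference of -0.64 (SE 0.20) (edgeR adjusted p = 0.278).

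PLK1, which drives mitotic entry and spindle formation, had 147 and 182 CPM in R183W WM1119 libraries, against 187, 185 and 178 CPM in R183W vehicle libraries. It had 134, 147 and 190.3 CPM in WT WM1119 libraries, against 158, 157 and 162 CPM in WT vehicle libraries. The libraries overlapped within each genotype. AURKA, the centrosomal Aurora kinase, had 441 and 433 CPM in R183W WM1119 libraries, against 558, 534 and 515 CPM in R183W vehicle libraries. It had 398, 475 and 475 CPM in WT WM1119 libraries, against 489.7, 472 and 424 CPM in WT vehicle libraries. The inhibited R183W libraries were below their vehicle libraries without overlap, and the WT groups overlapped. The log2 changes in R183W cells were -0.16 (SE 0.16) for PLK1 and -0.29 (SE 0.13) for AURKA, neither called. NEK2, a centrosome kinase, changed by 0.12 in R183W and -0.27 in WT cells without a call in the fit of all libraries.

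FOXM1, the transcription factor that joins MuvB at G2/M genes, differed with genotype under WM1119. FOXM1 had 24.96 and 17.2 CPM in R183W WM1119 libraries, against 24.9, 31.2 and 21.3 CPM in R183W vehicle libraries. It had 51.4, 49.3 and 49.5 CPM in WT WM1119 libraries, against 30.6, 30.7 and 35.9 CPM in WT vehicle libraries. The WT WM1119 libraries, WT WM1119 library 3 included, lay above every other library, and the R183W groups overlapped. R183W cells were lower than WT cells under WM1119 by -1.24 (SE 0.22) on the log2 scale (edgeR adjusted p = 0.00319), a call lost without R183W WM1119 library 2 (edgeR adjusted p = 0.0722). The inhibitor effects of -0.28 (SE 0.22) in R183W and 0.63 (SE 0.18) in WT cells did not pass (edgeR adjusted p = 0.513 and 0.0675), nor did their difference of -0.91 (SE 0.29) (edgeR adjusted p = 0.274). FOXM1 overlaps ITFG2 and RHNO1 on the opposite strand, and ITFG2 was lower in R183W cells under both treatments. RHNO1 had 15.6 and 17.5 CPM in R183W WM1119 libraries, against 27.5, 32.9 and 33.9 CPM in WT WM1119 libraries. Its log2 difference was -0.92 and was not called (edgeR adjusted p = 0.0554). Reads of FOXM1 and these genes cannot be told apart in this comparison.

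MKI67, the surface protein of mitotic chromosomes used as a proliferation marker, had 157 and 156 CPM in R183W WM1119 libraries, against 204, 207 and 203 CPM in R183W vehicle libraries. It had 195, 227 and 220.1 CPM in WT WM1119 libraries, against 225, 221 and 196 CPM in WT vehicle libraries. The inhibited R183W libraries were the low ones and overlapped no other group, while the remaining 3 groups overlapped one another. R183W cells were lower than WT cells under WM1119 by -0.45 (SE 0.13) (edgeR adjusted p = 0.0436). The call held without WT vehicle library 3, WT WM1119 library 1 or WT WM1119 library 3, and was lost without any of the other 8 libraries (edgeR adjusted p = 0.0517 to 0.243), with no filter (0.0887) and with the compared groups alone (0.222). The replicate block also lost it (edgeR adjusted p = 0.105). The change with WM1119 in R183W cells was -0.39 (SE 0.13) (edgeR adjusted p = 0.109), and in WT cells 0.00 (SE 0.11) (edgeR adjusted p = 0.997).

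None of the 5 spindle checkpoint genes was called in any comparison of the fit with all libraries. Without WT WM1119 library 3, TTK and MAD2L1 were called lower in R183W than in WT cells under WM1119. Without WT WM1119 library 1, BUB1 was called lower with WM1119 in WT cells. BUB1B, which encodes the checkpoint protein BubR1, had 40.3 and 45.6 CPM in R183W WM1119 libraries, against 43.1, 50.9 and 50.3 CPM in R183W vehicle libraries. It had 42.2, 41.9 and 39.2 CPM in WT WM1119 libraries, against 42.4, 41.0 and 38.6 CPM in WT vehicle libraries. BUB3, the adaptor that places BubR1 and BUB1 at kinetochores, had 148 and 147 CPM in R183W WM1119 libraries, against 186, 181 and 179 CPM in R183W vehicle libraries. It had 175, 178 and 137 CPM in WT WM1119 libraries, against 159.5, 159 and 151 CPM in WT vehicle libraries. The R183W groups overlapped for BUB1B and were separate for BUB3, with changes of -0.16 (SE 0.16) and -0.31 (SE 0.14). BUB1, the checkpoint kinase, had 26.6 and 29.6 CPM in R183W WM1119 libraries, against 34.3, 37.0 and 23.9 CPM in R183W vehicle libraries. It had 27.5, 24.1 and 18.2 CPM in WT WM1119 libraries, against 37.7, 38.9 and 34.1 CPM in WT vehicle libraries. All inhibited WT libraries lay below the WT vehicle libraries, and the R183W groups overlapped. Its change in WT cells was -0.65 (SE 0.20), the lowest of all members there (edgeR adjusted p = 0.0834). TTK, the kinase that starts the checkpoint signal, had 24.2 and 14.5 CPM in R183W WM1119 libraries, against 24.6, 30.6 and 26.0 CPM in R183W vehicle libraries. It had 38.7, 34.2 and 21.1 CPM in WT WM1119 libraries, against 25.2, 35.6 and 35.9 CPM in WT vehicle libraries. Inhibited R183W libraries were the low ones against their vehicle, by -0.47 (SE 0.29), and WT WM1119 library 3 was low against its group mates. MAD2L1, the checkpoint inhibitor of CDC20, had changes of -0.49 (SE 0.28) in R183W and 0.17 (SE 0.24) in WT cells.

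CDC20, the coactivator of the anaphase-promoting complex, had 131 and 121 CPM in R183W WM1119 libraries, against 149, 156 and 135 CPM in R183W vehicle libraries. It had 93.6, 116 and 117 CPM in WT WM1119 libraries, against 119.8, 93.2 and 86.4 CPM in WT vehicle libraries. R183W libraries lay above WT libraries without overlap under either treatment. The genotype difference was 0.56 (SE 0.15) under vehicle (edgeR adjusted p = 0.0239) and 0.22 (SE 0.17) under WM1119 (edgeR adjusted p = 0.471). The call under vehicle was lost when library 1 or 2 of the R183W vehicle group or library 2 or 3 of the WT vehicle group was left out (edgeR adjusted p = 0.0677 to 0.112). UBE2C, the ubiquitin-conjugating enzyme of the same complex, had changes of -0.14 and -0.22 with WM1119 in R183W and WT cells, neither called.

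At the centromere and kinetochore, NDC80 was called and CENPA, CENPE, CENPF and NUF2 were not in the fit with all libraries. NDC80, which encodes the microtubule-binding subunit HEC1 of the NDC80 complex, had 74.6 and 75.2 CPM in R183W WM1119 libraries, against 91.4, 97.6 and 96.9 CPM in R183W vehicle libraries. It had 84.1, 87.6 and 83.0 CPM in WT WM1119 libraries, against 72.7, 79.1 and 68.3 CPM in WT vehicle libraries. Inhibited libraries were the low ones in R183W cells and the high ones in WT cells, without overlap in either. Under vehicle R183W cells were higher by 0.38 (SE 0.12) (edgeR adjusted p = 0.0495), a call that held without WT WM1119 library 1 or 3 and was lost without any of the other 9 libraries (edgeR adjusted p = 0.0606 to 0.176), with no filter (0.172) and with RLE size factors (0.0502). The replicate block also lost this call (edgeR adjusted p = 0.0966). The inhibitor effects were -0.35 (SE 0.13) in R183W and 0.21 (SE 0.12) in WT cells and differed by -0.56 (SE 0.18) (edgeR adjusted p = 0.288). NUF2, its partner in the complex, had changes of -0.52 (SE 0.22) in R183W and -0.49 (SE 0.19) in WT cells, neither called (edgeR adjusted p = 0.202 and 0.161). CENPE, a kinetochore kinesin that moves chromosomes to the spindle equator, had changes of -0.57 (SE 0.16) and -0.42 (SE 0.14) in R183W and WT cells, with inhibited libraries below vehicle libraries without overlap in both (edgeR adjusted p = 0.0647 and 0.107). CENPF, a kinetochore protein that peaks in G2 and mitosis, was likewise separate in both, at -0.24 (SE 0.12) and -0.17 (SE 0.10). CENPA, the centromeric histone H3 variant, changed by 0.03 and -0.02.

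The partners of AURKB in the passenger complex differed in sign. BIRC5 (survivin) and CDCA8 (borealin) had changes of -0.50 (SE 0.17) and -0.18 (SE 0.14) in R183W cells, and INCENP, the scaffold, had 0.43 (SE 0.19). In WT cells the changes were 0.01, 0.11 and 0.24. None of these 6 values passed the threshold.

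The 6 kinesins had negative fitted changes in R183W cells, from -0.39 for KIF20A to -0.14 for KIF11, and none was called in any comparison. KIF18A, which limits chromosome oscillation at the spindle equator, had 11.5 and 11.2 CPM in R183W WM1119 libraries, against 14.5, 11.6 and 13.0 CPM in R183W vehicle libraries. It had 18.0, 14.4 and 16.9 CPM in WT WM1119 libraries, against 12.05, 9.53 and 6.59 CPM in WT vehicle libraries. The WT groups were separate with inhibited libraries the high ones, and in R183W cells the inhibited libraries sat just under the lowest vehicle library. Its change in WT cells, 0.81 (SE 0.25), was the highest of all members (edgeR adjusted p = 0.0765), and in R183W cells it was -0.20 (SE 0.28). KIF20A, a cytokinesis kinesin, had 15.6 and 10.6 CPM in R183W WM1119 libraries, against 15.8, 18.6 and 17.6 CPM in R183W vehicle libraries. It had 27.7, 25.9 and 16.9 CPM in WT WM1119 libraries, against 20.8, 25.5 and 30.3 CPM in WT vehicle libraries. R183W libraries lay below WT libraries under both treatments without overlap, by -0.85 (SE 0.27) under WM1119 and -0.56 (SE 0.23) under vehicle (edgeR adjusted p = 0.0731 and 0.125).

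Both spindle genes that fell in R183W cells bind microtubules. PRC1, which bundles the microtubules of the central spindle, had 174 and 144 CPM in R183W WM1119 libraries, against 219.6, 255 and 249 CPM in R183W vehicle libraries. It had 205, 188 and 159.8 CPM in WT WM1119 libraries, against 201, 188 and 193 CPM in WT vehicle libraries. The inhibited R183W libraries lay below every R183W vehicle library and the WT groups overlapped. Group means were 159 ± 21.0 CPM (SD, n = 2) and 241 ± 18.9 CPM (n = 3) in R183W cells, and the log2 fold change was -0.60 (SE 0.15) (edgeR adjusted p = 0.0331). In WT cells the change was -0.07 (SE 0.13) (edgeR adjusted p = 0.796), and the effects differed by -0.53 (SE 0.20) (edgeR adjusted p = 0.396). PRC1 missed the threshold without R183W vehicle library 2 or 3, WT vehicle library 2, or R183W WM1119 library 1 or 2 (edgeR adjusted p = 0.124, 0.113, 0.0543, 0.104 and 0.347).

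HMMR, the hyaluronan-mediated motility receptor that also organises spindle poles, had 66.0 and 75.8 CPM in R183W WM1119 libraries, against 107, 111 and 133 CPM in R183W vehicle libraries. It had 101, 89.1 and 79.3 CPM in WT WM1119 libraries, against 105, 114 and 123 CPM in WT vehicle libraries. Inhibited libraries were the low ones in both genotypes without overlap. Group means were 70.9 ± 6.94 CPM (SD, n = 2) and 117 ± 13.8 CPM (n = 3) in R183W cells, and the log2 fold change was -0.72 (SE 0.16) (edgeR adjusted p = 0.022). In WT cells the change was -0.34 (SE 0.14) (edgeR adjusted p = 0.186), and the effects differed by -0.38 (SE 0.21) (edgeR adjusted p = 0.635), so no genotype difference in the effect was shown. HMMR missed the threshold in R183W cells when R183W WM1119 library 1 or 2 or R183W vehicle library 2 or 3 was left out (edgeR adjusted p = 0.224, 0.136, 0.0575 and 0.0947).

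ASPM, the spindle-pole protein whose loss causes microcephaly, had 202 and 179 CPM in R183W WM1119 libraries, against 235, 244 and 235 CPM in R183W vehicle libraries. It had 296, 255 and 219 CPM in WT WM1119 libraries, against 338, 295 and 328 CPM in WT vehicle libraries. R183W libraries were lower than WT libraries under both treatments without overlap. The difference was -0.43 (SE 0.13) under vehicle (edgeR adjusted p = 0.0405) and -0.43 (SE 0.15) under WM1119 (edgeR adjusted p = 0.0886). The call held without WT WM1119 library 1 or 3 and was lost without any of the other 9 libraries (edgeR adjusted p = 0.0644 to 0.142). TPX2, the activator of AURKA on the spindle, and NUSAP1 had changes of -0.20 and -0.23 in R183W cells and 0.37 and 0.01 in WT cells. DLGAP5, a spindle assembly protein, was one of the 5 members with a positive change in R183W cells, at 0.24 (SE 0.15). ECT2 and ANLN, which build the cleavage furrow, had changes of -0.54 (SE 0.17) and -0.55 (SE 0.23) in R183W cells and -0.34 (SE 0.15) and -0.46 (SE 0.20) in WT cells, none of which passed.

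TOP2A, the topoisomerase that untangles sister chromatids, was called between the genotypes under vehicle only in the fit with all libraries. Without WT WM1119 library 3, TOP2A was also called higher in R183W cells under WM1119. It had 2300.0 and 2307 CPM in R183W WM1119 libraries, against 2931, 2546 and 2527 CPM in R183W vehicle libraries. It had 1313, 1468 and 2199 CPM in WT WM1119 libraries, against 1659, 1407 and 1228 CPM in WT vehicle libraries. Every R183W library lay above every WT library, and WT WM1119 library 3 came closest to the R183W range. R183W cells were higher by 0.90 (SE 0.17) under vehicle (edgeR adjusted p = 0.00358) and by 0.47 (SE 0.19) under WM1119, where the difference did not pass (edgeR adjusted p = 0.144). Without TOP2A, the other members summed to 4655 and 4557 CPM in R183W WM1119 libraries, against 5544, 5633 and 5522 CPM in R183W vehicle libraries. The sums were 5397, 5381 and 5247 CPM in WT WM1119 libraries, against 5502, 5348 and 5348 CPM in WT vehicle libraries. The R183W WM1119 sums were thus the low ones of the series, and the WT sums overlapped.

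Genes of the same processes outside the 45 are given by list. Over all 13980 genes tested, an unadjusted p under 0.05 (edgeR) was reached by 2739 with WM1119 in R183W cells and 2980 in WT cells. It was reached by 1300 for the interaction. Of 34 other kinetochore and centromere genes, CENPM, ZWINT and ZWILCH fell with WM1119 in R183W cells, beside 2.65% of all genes tested that fell, and the list had a median log2 change of -0.46. In WT cells none was called (8 higher and 1 lower at an unadjusted p under 0.05, edgeR) and the median was 0.19. ZWINT, a partner of the KNL1 scaffold that recruits the checkpoint, had 13.7 and 18.1 CPM in R183W WM1119 libraries, against 28.5, 31.0 and 34.7 CPM in R183W vehicle libraries, a change of -0.99 (SE 0.22) (edgeR adjusted p = 0.0233). ZWILCH, a subunit of the checkpoint complex RZZ, had 99.3 and 105 CPM in R183W WM1119 libraries, against 158, 177 and 158 CPM in R183W vehicle libraries, a change of -0.69 (SE 0.14) (edgeR adjusted p = 0.0112). Neither gene overlapped between these groups. The count of 3 was 0 to 11 when single libraries were left out, all 3 calls being lost when R183W vehicle library 2 or any R183W WM1119 library was left out (edgeR adjusted p = 0.0549 to 0.247 for the 3 genes). The interaction called none of the 34 (13 lower and 0 higher at an unadjusted p under 0.05, edgeR), with a median of -0.45 and 32 of 34 negative.

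Of 12 DREAM and MuvB genes, the regulators that bind CHR and E2F promoters, RBL1 fell with WM1119 in R183W cells, beside 2.65% of all genes tested that fell, MYBL2 rose in WT cells, beside 2.33% that rose, and TFDP2 differed between the genotypes. RBL1, the pocket protein p107, had 17.8 and 18.7 CPM in R183W WM1119 libraries, against 35.0, 31.2 and 32.04 CPM in R183W vehicle libraries. It had 36.9, 42.1 and 52.0 CPM in WT WM1119 libraries, against 34.1, 27.1 and 27.3 CPM in WT vehicle libraries. Inhibited libraries were the low ones in R183W cells and the high ones in WT cells, without overlap. RBL1 fell by 0.85 on the log2 scale in R183W cells (SE 0.21, edgeR adjusted p = 0.0317), and its change in WT cells was 0.56 (SE 0.17) (edgeR adjusted p = 0.0817). The difference between these effects was -1.40 (SE 0.27) (edgeR adjusted p = 0.0486). The fall was lost without any single R183W library (edgeR adjusted p = 0.0699 to 0.217), and the difference held only without WT vehicle library 1, WT WM1119 library 1 or WT WM1119 library 3 and was lost without any of the other 8 (0.0999 to 0.308) and with limma-voom (limma adjusted p = 0.0629). MYBL2, the B-Myb factor of MuvB, had 264, 329 and 501 CPM in WT WM1119 libraries, against 210.2, 165 and 132 CPM in WT vehicle libraries, and rose by 1.11 (SE 0.21) (edgeR adjusted p = 0.0096), a call lost without WT vehicle library 3 (0.0518) and with the compared groups alone (0.0838). It had 191 and 205 CPM in R183W WM1119 libraries, against 228, 221 and 211 CPM in R183W vehicle libraries, a change of -0.15 (SE 0.23). In WT cells the WM1119 libraries were the high ones without overlap, with WT WM1119 library 3 highest, and in R183W cells the WM1119 libraries lay just below the vehicle libraries. Under WM1119 RBL1 and MYBL2 were both lower in R183W cells than in WT cells, by -1.25 (SE 0.21) and -0.88 (SE 0.24) (edgeR adjusted p = 0.00203 and 0.0368). For MYBL2 this result depended on single libraries, passing the threshold in only 5 of the 11 fits that each omitted 1 library. MYBL2 also failed to pass here with the compared groups alone and with the replicate block (edgeR adjusted p = 0.124 and 0.123). TFDP2, a dimer partner of E2F factors, had 254 and 238 CPM in R183W WM1119 libraries and 162, 167 and 182.9 CPM in WT WM1119 libraries. Under vehicle it had 290.2, 326 and 299 CPM in R183W libraries and 216, 206 and 238 CPM in WT libraries. R183W libraries were the high ones without overlap, by 0.53 (SE 0.13) under WM1119 and 0.47 (SE 0.11) under vehicle (edgeR adjusted p = 0.0201 and 0.0144). The call under WM1119 was lost with the compared groups alone (edgeR adjusted p = 0.135) and when any 1 of R183W WM1119 libraries 1 and 2 or WT WM1119 libraries 1 and 2 was left out (0.0526 to 0.185). The call under vehicle was lost without R183W vehicle library 2 or WT vehicle library 2 (0.0743 and 0.0644).

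Of 20 cohesin, condensin and separase genes, none was called with WM1119 in either genotype (2 lower in R183W cells and 3 higher in WT cells at an unadjusted p under 0.05, edgeR). RAD21, the cohesin subunit cut by separase, had 450.2 and 436 CPM in R183W WM1119 libraries and 819, 791 and 642 CPM in WT WM1119 libraries. Under vehicle it had 459, 488 and 448 CPM in R183W libraries and 719.8, 751 and 859 CPM in WT libraries. R183W libraries were the low ones under both treatments, by -0.76 (SE 0.14) under WM1119 and -0.74 (SE 0.12) under vehicle (edgeR adjusted p = 0.00369 and 0.00125). The call under WM1119 was lost without either R183W WM1119 library (edgeR adjusted p = 0.0505 and 0.0703) and with the compared groups alone (0.0715). Of the 7 genes of the Greatwall and PP2A-B55 axis, PPP2R2C, a B55 subunit of PP2A, was lower in R183W cells, with 1.65, 0.428 and 1.01 CPM in R183W vehicle libraries, against 10.7, 16.8 and 12.2 CPM in WT vehicle libraries (log2 difference -3.60 (SE 0.43), edgeR adjusted p = 0.000113). Its groups did not overlap, and neither inhibitor effect passed. A single count equals 0.165 to 0.214 CPM in the R183W vehicle libraries. PPP2R2C levels there thus rest on few counts, and the size of the difference is uncertain.

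Of 31 other spindle, centrosome and cytokinesis genes, DEPDC1 fell with WM1119 in R183W cells, beside 2.65% of all genes tested that fell. None of the 31 was called in WT cells (4 higher and 0 lower at an unadjusted p under 0.05, edgeR). The medians were -0.20 and 0.07. Of 17 other genes expressed in G2 and mitosis, none was called in R183W cells (1 higher and 2 lower at an unadjusted p under 0.05, edgeR). TROAP rose in WT cells, beside 2.33% of all genes tested that rose. The medians of this list were -0.17 and 0.03. Of 16 tested APC/C subunits and regulators, none was called in any comparison (1 higher and 1 lower in R183W cells and none in WT cells with WM1119 at an unadjusted p under 0.05, edgeR), with medians of -0.03 and -0.01. Both named calls rested on single libraries: DEPDC1, at -0.72 (SE 0.16), missed the threshold when 1 of the R183W WM1119 libraries or library 2 or 3 of the R183W vehicle group was omitted (edgeR adjusted p = 0.0578 to 0.2), and TROAP, at 0.99 (SE 0.26), was lost with the compared groups alone (0.127) and without any of 8 single libraries (0.0517 at the lowest). Under vehicle, 2 genes of the spindle list and 2 of the G2 and mitosis list were higher in R183W cells than in WT cells and 1 of each was lower, beside 6.82% of all genes tested that were higher and 6.17% that were lower.

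The DNA replication genes, which are expressed before G2, had medians further from 0 than the members for the licensing genes in every comparison. With WM1119 in R183W cells, 5 of 24 MCM helicase and origin licensing genes fell and none rose, with a median of -0.59, and 3 of 27 replication fork genes fell, with a median of -0.25, beside 2.65% of all genes tested that fell. In WT cells 7 licensing and 4 fork genes rose and none fell, with medians of 0.56 and 0.28, beside 2.33% of all genes tested that rose. Under vehicle 8 and 4 genes of these lists were higher in R183W cells than in WT cells, with medians of 0.42 and 0.29, beside 6.82% of all genes tested that were higher. The interaction called 4 licensing and 3 fork genes, all negative, with medians of -1.13 and -0.61, beside the median of -0.25 of the members and the 0.193% of all genes tested that were lower. Counts rested on single libraries: the licensing genes called in R183W cells numbered 0 to 11 and those in WT cells 2 to 8 when any 1 library was left out, with medians of -0.64 to -0.53 and 0.40 to 0.57.

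**Figure D4:**
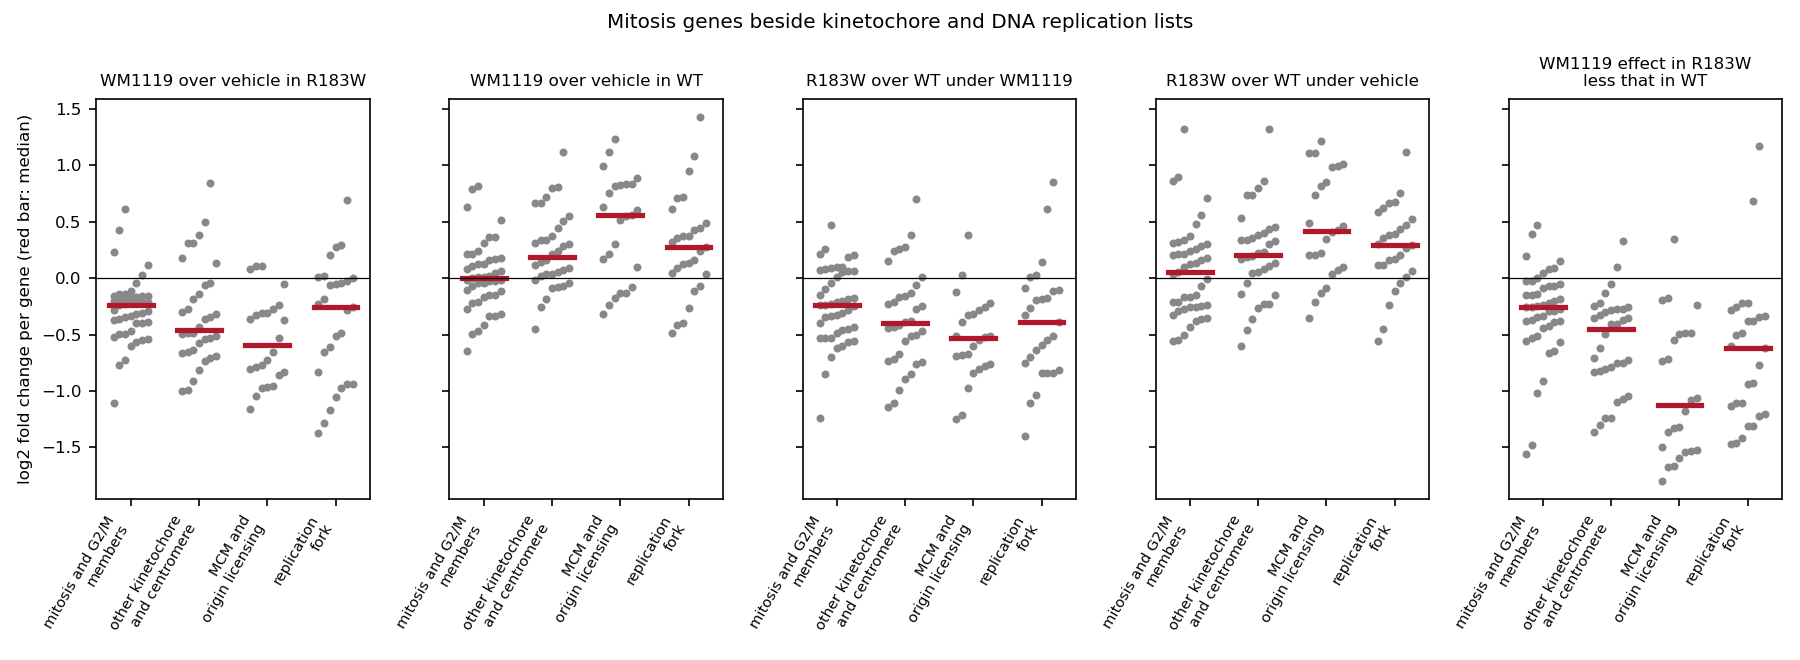
Log2 difference of each gene in the 45 members, 34 other kinetochore and centromere genes, 24 MCM and licensing genes and 27 replication fork genes, with red bars at the medians, for the 5 comparisons. The medians of the members and of the MCM and licensing genes are -0.24 and -0.59 with WM1119 in R183W cells, 0.00 and 0.56 in WT cells, and -0.25 and -1.13 for the difference between the genotypes.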

How the data were processed

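The deposited table gives the authors' expected counts, in which reads matching several genes are shared out, as whole numbers. STAR, RSEM and the hg19 build are named in the submitters' processing notes, without versions. Per the labels' protocols, RNA came from RNeasy columns with DNase I and the library kit was ScriptSeq Complete Gold; the molecule field reads polyA. Whether strand was used, and the annotation, are not given in the sources used here.

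IDs were paired with symbols through GENCODE release 29 (51959 of 57736; the rest held 1.01% of counts). Counts were tested with edgeR 4.0.16 in R 4.3.3 (quasi-likelihood F test, two-sided, TMM, filterByExpr, 13980 genes, with 99.7% or more of each library's counts). One fit had 4 group means over all 11 libraries, with a biological coefficient of variation of 19.6%. P-values were adjusted over all genes tested and called under 0.05. The standard error (SE) is the fold change divided by the square root of F. CPM are TMM-scaled, with SD over libraries. Library totals of 2609922 to 6065149 counts and 2 to 3 libraries per group set the precision. The scripts were tested on simulated data. Alternatives were DESeq2 1.42.0, limma-voom 3.58.1, RLE size factors, no filter on low counts, the compared groups alone, a replicate block and leaving out each library.

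Named were 16 members with a central role, every member called, the 3 largest changes of each comparison, and, of the other lists, at most 3 called genes per comparison; not every called gene of those lists is named. The members, lists and rules were chosen with earlier results of these data known. Reads shared with named pseudogenes, such as those of CCNB2, MKI67 and UBE2C, make levels of such members uncertain.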

Additional observations from a re-analysis of the deposited data

Results flagged for a closer look

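Results are given here where the effect of WM1119 was tested to differ between R183W and WT cells among the genes named. PKMYT1 had a difference of -1.56 on the log2 scale (edgeR adjusted p = 0.0189), the effect being -0.77 in R183W cells and 0.79 in WT cells, with separate WM1119 and vehicle libraries in both. Reads of PAQR4 and KREMEN2, which overlap PKMYT1 on the opposite strand, could not be told apart from its own. COL1A1, the stromal collagen marker, had a difference of -1.02 (edgeR adjusted p = 0.0252), the effect being -0.56 in R183W cells and 0.46 in WT cells. RBL1 had a difference of -1.40 (edgeR adjusted p = 0.0486), the effect being -0.85 in R183W cells and 0.56 in WT cells. No group had 4 or more libraries, so single libraries far from their group were not sought by a fixed criterion.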

How the results depend on the processing

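No called gene named here changed direction under any of the 17 alternatives, while the members' median in WT cells, close to 0, changed sign. Genes called with WM1119 in R183W cells numbered 649, against 975 with DESeq2, 1110 without a filter, 2406 with the compared groups alone and 261 with a replicate block. Members called there numbered 3, against 8, 7, 14 and 0 (2 higher and 12 lower at an unadjusted p under 0.05 in edgeR with the block, whose median was -0.31). In WT cells genes called numbered 680, against 1115, 1287, 139 and 287, and members 1, against 5 with DESeq2, 2 without a filter and 0 with the compared groups alone (4 higher and 2 lower at an unadjusted p under 0.05, edgeR). For R183W against WT under WM1119, genes numbered 1197, against 319 with the compared groups alone and 678 with the block, and members 2, against 7 with DESeq2, 5 without a filter, 1 with the compared groups alone and 1 with the block. Under vehicle, genes numbered 1817, against 2929 and 1189 with the last pair of settings, and members 8, against 3 with the block. For the interaction, genes numbered 40, against 169 with DESeq2, 191 without a filter and 0 with the block, where no member was called (8 lower at an unadjusted p under 0.05, edgeR). The cause was not tested. Leaving out single libraries gave 118 to 1600, 247 to 1392, 386 to 2895, 965 to 3151 and 0 to 192 genes called in the 5 comparisons in this order. Members called were 0 to 9, 0 to 7, 0 to 16, 3 to 14 and 0 to 1, and medians -0.33 to -0.24, -0.067 to 0.054, -0.32 to -0.18, 0.0098 to 0.11 and -0.32 to -0.19. Same-numbered libraries correlated at -0.39 to 0.14 in their deviations from group means, and different-numbered ones at -0.16 to 0.41. Deviations in a group of 2 or 3 libraries must cancel out, so these correlations cannot settle whether libraries were paired. The sources used here do not state a pairing, and the main fit used none. Members called under vehicle numbered 6 with RLE size factors, NDC80 and CDC25A being lost. The replicate block lost PKMYT1, PRC1 and HMMR with WM1119 in R183W cells (edgeR adjusted p = 0.0774 to 0.0874). Under vehicle it lost CDC25A, CDC25B, CDC20, NDC80 and ASPM (edgeR adjusted p = 0.0574 to 0.0966). Outside the members, it lost calls of COL1A1, CENPM, ZWINT, DEPDC1, RBL1, TROAP, MYBL2 and TFDP2 in some comparisons (edgeR adjusted p = 0.0507 to 0.22). Totals of 2609922 to 6065149 counts and 2 or 3 libraries per group limit the precision of single genes.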
